A study of Mus musculus with 74 samples.

Results

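The genes described here are 40 mouse genes that mark or build blood vessels, followed through the day of gonad formation in which testis and ovary fates separate. They were chosen by gene symbol, as every probe of a 40-gene list spanning arterial, venous and pan-endothelial genes. The table used here held 56 probes for 39 of them (none was matched to Cldn5, which was not analysed here), out of 16593 named genes in the deposited table. A brightness filter, set to keep as many probes as the study's own detection filter did, left 44 probes of 33 genes, and 8611 named genes in all. The filter asks for brightness in a probe's best group, so a dim probe could pass through the group in which it is highest.

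Transcripts were measured on 74 Illumina bead arrays, 1 array per pair of gonads dissected away from the mesonephros. The groups were every combination of 2 inbred mouse strains, 129S1/SvImJ (129S1) and C57BL/6J (B6), 2 sexes by chromosome constitution (XX and XY), and 6 stages 0.2 days apart from embryonic day (E) 11.0 to E12.0, the stage being read from tail somites. Each of the 24 groups held 3 arrays, except that 129S1 XY had 5 at E11.0 and 2 at E12.0, and B6 XY had 4 at E11.2. The labels name no transgene, mutation or treatment for any group, and they do not say which embryos shared a litter. The replicate is therefore the gonad pair, and the p-values below measure the spread among such pairs. Values are quantile-normalized log2 intensities, so a level can be compared between arrays for 1 probe but not between probes. Xist, which is transcribed only where 2 X chromosomes are present, lay between 9.71 and 11.08 in every array labelled XX and between 7.10 and 7.58 in every array labelled XY.

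Endothelial cells line vessels and share a set of junction, receptor and transcription factor genes, of which Cdh5 (VE-cadherin, the adhesion molecule of endothelial junctions), Tie1 and Tek (the TIE receptor kinases) and Egfl7 (a secreted endothelial protein) are widely used markers. On top of this shared program, arteries are set apart by Notch signalling and gap junction connexins, veins by other receptors and transcription factors, and sinusoidal and lymphatic endothelium by scavenger receptors. In the XY gonad, endothelial cells move in from the neighbouring mesonephros during the stages sampled here and assemble a coelomic artery that the XX gonad lacks. A whole gonad was measured, so fewer cells of a type and less RNA per cell cannot be told apart in any value below.

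By role, the filter kept 3 of 4 arterial genes, 4 of 7 receptors, 1 of 2 sprouting ligands, 13 of 14 surface, junction and secreted proteins, 5 of 6 transcription factors, 3 of 3 regulators shared with blood cells, and 4 of 4 venous, sinusoidal and lymphatic genes. The genes below the filter were Dll4 (the Notch ligand of arteries and tip cells), Acvrl1 (the receptor ALK1), Flt4 (VEGF receptor 3), Kdr (VEGF receptor 2), Apln (the tip-cell ligand apelin) and Erg (an endothelial ETS factor). Single probes of Gja5, Flt1, Angpt2 and Ets1 also fell below it, each of these genes keeping another probe. The quantity ranked for the filter, the second brightest array of a probe's best group, was 7.56 for Dll4, the brightest member left out, and 7.66 for Ets1, the dimmest member kept. The level of these 6 genes and its changes were not analysed here.

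The first question was whether endothelial transcripts rose or fell as the gonad formed. Between E11.0 and E12.0, 10 of the 44 probes passed the test in XX gonads, 2 higher and 8 lower at E12.0, and 12 of 44 passed in XY gonads, 5 higher and 7 lower. The 8 lower in XX include the dimmer of the Notch4 probes, whose fall the brightness filter favoured, as described below. Notch4, Angpt2, Nos3, Plvap and Stab1 fell in both sexes, Lmo2 and Gpr182 rose in both, and Ets1 and Ramp2 rose in XY gonads. The test was the moderated t of limma on the 24 group means, averaged over the strains, with Benjamini-Hochberg adjustment over all kept probes and a threshold of 0.05. Of all kept probes, 12.1% passed in XX (6.12% higher and 5.94% lower) and 17% in XY (7.43% higher and 9.6% lower), so the members' share was above that of all probes in each sex. The median change of the 44 probes was -0.07 in XX and -0.08 in XY on the log2 scale, beside -0.01 for all kept probes in each sex. The XY calls of Angpt2, Nos3, Plvap, Stab1, Lmo2 and Ramp2 were lost in B6 alone (limma adjusted p of 0.164 to 0.756). That of Ets1 was lost in 129S1 alone (limma adjusted p = 0.0837). Every XX call but that of Notch4 probe ILMN_1220697 was lost in 129S1 alone, in B6 alone or in both. The change itself was not shown to differ between the strains for any member.

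**Figure D1:**
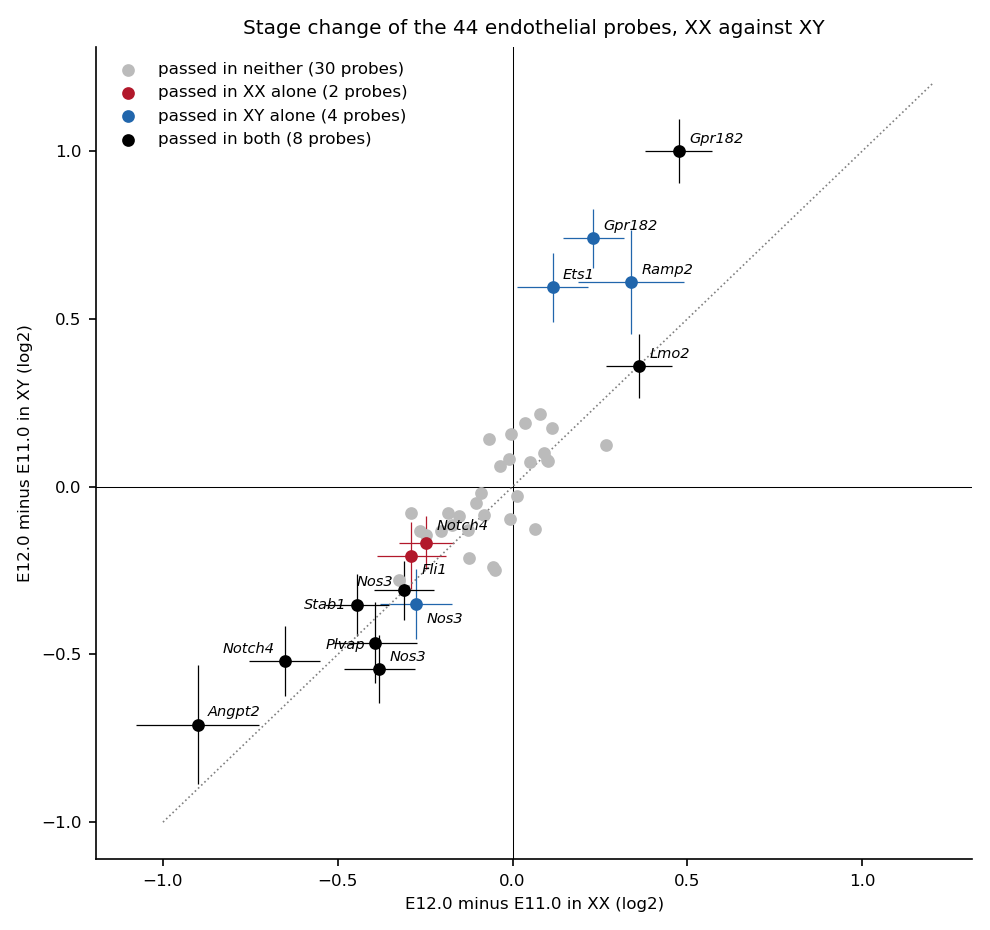
Change from E11.0 to E12.0 (log2, mean of the strains) of each of the 44 endothelial probes in XX gonads (horizontal axis) and XY gonads (vertical axis), with bars of 1 SE from limma on the probes that passed the test and a dotted line where both sexes change alike. The 8 probes that passed in both sexes lie in the lower left or upper right, and the 2 Gpr182 probes, Ets1 and Ramp2 stand above the line.

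Among arterial genes, Notch4, an endothelial Notch receptor, had the smallest p of the members that fell in XX gonads. On its brighter probe (ILMN_1220697) the 6 XX arrays of E11.0 had a lowest level of 9.88, a median of 10.14 and a highest of 10.45, against 9.27, 9.51 and 9.67 in the 6 XX arrays of E12.0. In XY gonads the 8 arrays of E11.0 ran from 9.96 through a median of 10.24 to 10.42, and the 5 arrays of E12.0 read 9.61 and 9.80 in 129S1 and 9.88, 9.67 and 9.47 in B6. In each sex every E12.0 array lay below every E11.0 array, a separation that 4.12% of all kept probes showed in XX and 5.62% in XY. The level fell by 0.65 (SE 0.10, 1.57-fold, limma adjusted p = 2.48e-06) in XX and by 0.52 (SE 0.10, 1.43-fold, limma adjusted p = 0.000114) in XY. The group means of XX gonads over the 6 stages were 10.15, 10.23, 9.98, 9.69, 9.72 and 9.50, and those of XY gonads were 10.22, 10.07, 9.99, 9.81, 9.73 and 9.69. Notch4 was also the only member whose fall passed in each strain taken alone in both sexes, by 0.81 in 129S1 and 0.50 in B6 in XX gonads and by 0.54 and 0.50 in XY gonads.

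The dimmer Notch4 probe (ILMN_1256134) fell by 0.25 in XX (limma adjusted p = 0.0266) and changed by -0.17 in XY (limma adjusted p = 0.154), with overlapping arrays in both sexes, and its XX call was lost without any 1 of 4 arrays (adjusted p of up to 0.141). The connexin genes of arteries, Gja4 (connexin 37) and Gja5 (connexin 40), did not pass the E11.0 to E12.0 contrast: their changes were between -0.26 and -0.01 in XX and between -0.25 and 0.08 in XY over 3 probes. At an unadjusted p under 0.05, limma found none of these connexin probes in either sex. Hey1, a Notch target gene of arteries outside the 40 members, fell in XX by 0.62 (limma adjusted p = 0.000325) and in XY by 0.51 (limma adjusted p = 0.00289). Nrp1, a VEGF and semaphorin co-receptor, fell by 0.35 in XY (limma adjusted p = 0.0333), on only 1 of its probes. These were the only 2 of the 7 kept genes on a 10-gene list of other arterial genes to pass this contrast, and both are also expressed outside endothelium.

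Angpt2, the angiopoietin secreted by sprouting endothelium that opposes Tek signalling, had the largest fall in size. Its levels in XX gonads had a lowest value of 8.03, a median of 8.40 and a highest of 9.09 at E11.0, and 7.24, 7.58 and 7.66 at E12.0. In XY gonads they were 7.96, 8.12 and 8.71 at E11.0, and at E12.0 the arrays read 7.35 and 7.42 in 129S1 and 8.18, 7.45 and 7.40 in B6. The XX arrays of E11.0 and E12.0 were fully apart, as for 4.12% of all kept probes, whereas in XY 1 B6 array of E12.0 lay within the E11.0 range. Angpt2 fell by 0.90 (SE 0.18, 1.87-fold, limma adjusted p = 0.000129) in XX and by 0.71 (SE 0.18, 1.64-fold, limma adjusted p = 0.00231) in XY. Its stage means fell from 8.44 at E11.0 through 7.84 at E11.4 to 7.53 at E11.8 in XX, and from 8.24 through 7.91 to 7.51 in XY, with an SD of 0.62 at E11.2 in XX and of 0.53 in XY. Among vascular ligands outside the members, Vegfd rose by 0.46 in XX (limma adjusted p = 0.00225) and Vegfc fell by 0.40 in XY (limma adjusted p = 0.0131), 2 of 4 kept genes of a 6-gene list.

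Of the surface and secreted proteins, Nos3, which encodes endothelial nitric oxide synthase, fell on 2 of 3 probes in XX and on all 3 in XY. On probe ILMN_2788593 the XX arrays ran from 8.22 (median 8.47) to 8.68 at E11.0 and from 7.59 (median 8.13) to 8.28 at E12.0. The XY arrays ran from 8.28 (median 8.43) to 8.82 at E11.0, and those of E12.0 read 7.49 and 7.96 in 129S1 and 8.25, 7.88 and 8.11 in B6. The XY stages did not overlap, as for 5.62% of all kept probes, and the XX stages overlapped narrowly. This probe fell by 0.38 (SE 0.10, 1.30-fold, limma adjusted p = 0.00625) in XX and by 0.54 (SE 0.10, 1.46-fold, limma adjusted p = 4.38e-05) in XY. The other probes changed by -0.31 and -0.28 in XX (limma adjusted p = 0.00965 and 0.0694) and fell by 0.31 and 0.35 in XY, calls that were lost without 129S1 XY E12.0 replicate 1 and, for the probe that fell by 0.35, also without B6 XY E11.0 or E12.0 replicate 3.

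Plvap, the protein of the diaphragms that close endothelial fenestrae and caveolae, fell by 0.39 in XX (SE 0.12, 1.31-fold, limma adjusted p = 0.0183) and by 0.46 in XY (SE 0.12, 1.38-fold, limma adjusted p = 0.0031). Its XX arrays ran from 10.93 (median 11.08) to 11.39 at E11.0 and from 10.38 (median 10.77) to 10.96 at E12.0. Its XY arrays ran from 10.67 (median 11.07) to 11.39 at E11.0 and read 10.46 and 10.71 in 129S1 and 10.76, 10.49 and 10.44 in B6 at E12.0. A few arrays overlapped between the stages in each sex, and the XX call was lost in each strain alone and without 129S1 XX E11.0 replicate 1, B6 XX E11.0 replicate 2 or B6 XX E12.0 replicate 1 (adjusted p of up to 0.0713). Ramp2, the co-receptor that makes the adrenomedullin receptor of endothelium, moved the other way. Its XX arrays ran from 10.60 (median 11.07) to 11.17 at E11.0 and from 10.71 (median 11.37) to 11.73 at E12.0, overlapping over most of their range. Its XY arrays ran from 10.67 (median 10.95) to 11.43 at E11.0, and read 11.51 and 11.84 in 129S1 and 11.65, 11.29 and 11.78 in B6 at E12.0, where 4 of 5 exceeded every E11.0 array. Ramp2 rose by 0.61 in XY (SE 0.15, 1.53-fold, limma adjusted p = 0.00257), and its change in XX was 0.34 (SE 0.15, limma adjusted p = 0.153).

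The remaining genes of this role, among them Cdh5, Egfl7, Emcn (endomucin), Pecam1 (CD31), Cd34, Esam, Icam2, Mmrn2, Rasip1 and Vwf (von Willebrand factor), did not pass the E11.0 to E12.0 contrast in either sex. Their changes ran from -0.32 for Cdh5 in XX (limma adjusted p = 0.053) to 0.16 for an Egfl7 probe in XY (limma adjusted p = 0.343). None of the 4 kept receptor probes, of Eng, Flt1, Tek and Tie1, passed this contrast in either sex, and limma found none of them at an unadjusted p under 0.05. Their intervals were wide enough to hold sizeable changes, that of Tek in XX running from -0.43 to 0.06.

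Stab1, a scavenger receptor of sinusoidal endothelium that macrophages also express, fell in both sexes. In XX its arrays ran from 7.87 (median 8.06) to 8.50 at E11.0 and from 7.37 (median 7.71) to 7.83 at E12.0. In XY they ran from 7.87 (median 8.01) to 8.08 at E11.0, and read 7.45 and 7.61 in 129S1 and 7.81, 7.72 and 7.60 in B6 at E12.0. All arrays of E12.0 were below all arrays of E11.0 in each sex, where 4.12% of all kept probes had stages apart in XX and 5.62% in XY. Stab1 fell by 0.45 (SE 0.09, 1.36-fold, limma adjusted p = 0.000307) in XX and by 0.35 (SE 0.09, 1.28-fold, limma adjusted p = 0.00378) in XY. Stab2, its paralogue and a receptor for hyaluronan in sinusoidal endothelium, changed by 0.05 in XX and 0.07 in XY, and Aplnr, the apelin receptor of veins, by 0.01 and -0.03; none of these passed, nor did they reach an unadjusted p under 0.05.

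Among regulators, Lmo2, a LIM-domain factor of blood and endothelial precursors that works in a complex with Tal1, rose in both sexes. Its XX arrays ran from 9.67 (median 9.83) to 10.13 at E11.0 and from 9.94 (median 10.25) to 10.43 at E12.0. Its XY arrays ran from 9.55 (median 9.90) to 10.13 at E11.0 and read 10.38 and 10.26 in 129S1 and 10.43, 10.09 and 10.10 in B6 at E12.0. Most arrays of E12.0 exceeded those of E11.0, but the ranges overlapped in both sexes. Lmo2 rose by 0.36 in XX (SE 0.09, 1.29-fold, limma adjusted p = 0.00505) and by 0.36 in XY (SE 0.09, 1.28-fold, limma adjusted p = 0.00405). Tal1 changed by 0.27 in XX (limma adjusted p = 0.0559) and 0.12 in XY (limma adjusted p = 0.446), and Lyl1, a paralogue of Tal1, by -0.12 and -0.21. The ETS factor Fli1 ran from 7.74 (median 8.01) to 8.30 in XX gonads at E11.0 and from 7.43 (median 7.71) to 7.90 at E12.0. In XY gonads it ran from 7.67 (median 7.89) to 8.22 at E11.0, and at E12.0 read 7.57 and 7.66 in 129S1 and 7.73, 7.87 and 7.65 in B6. The stages overlapped in each sex. Fli1 fell by 0.29 in XX (limma adjusted p = 0.0433) and changed by -0.21 in XY (limma adjusted p = 0.17). Its XX call was lost without any 1 of 8 arrays, with an adjusted p of up to 0.201. Neither Sox17, Sox7 nor Sox18, the SOX factors of arterial and venous endothelium, passed this contrast in either sex, with changes between -0.17 and 0.22 in limma.

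A contrast of the first and last stage leaves out the stages between, so limma's moderated F test over all 6 stages, both sexes and strains together, was also read for the members. This reading was added after the data had been seen. Of the 44 probes, 21 (17 genes) passed it, beside 22.7% of all kept probes, and 26 had an unadjusted p under 0.05. They included the 14 probes that passed the E11.0 to E12.0 contrast in either sex, and 7 that passed it in neither. The dimmer Notch4 probe, whose fall the filter favoured, was 1 of the 14. Tal1 (adjusted p in limma = 0.00368) had means of 7.64 and 7.57 at E11.0 and E11.2 and of 7.76 to 7.84 from E11.4 on, with SDs of 0.08 to 0.24. Rasip1, which acts on endothelial junctions and vessel lumens (adjusted p in limma = 0.00508), was at 9.25 ± 0.16 (SD, n = 14) at E11.0, 8.91 ± 0.19 (SD, n = 12) at E11.8 and 9.10 ± 0.18 (SD, n = 11) at E12.0, so its lowest mean fell before the last stage. The dimmer Sox7 probe (ILMN_2653251, adjusted p in limma = 0.00584) was highest at E11.4, at 8.21 ± 0.21 (SD, n = 12), and lowest at E12.0, at 7.95 ± 0.14 (SD, n = 11). Cdh5 (adjusted p in limma = 0.0307) went from 8.16 ± 0.25 (SD, n = 14) to 7.86 ± 0.20 (SD, n = 11). The calls of Cdh5, Tek, Gja4 and Sox18 were lost without the brightness filter and without any 1 of 7, 19, 20 and 38 arrays, and that of Sox18 also with array quality weights, with arrays centred and scaled and with the replicate block. Tal1, Rasip1 and this Sox7 probe passed in each of these alternatives that kept them and with each array left out.

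**Figure D2:**
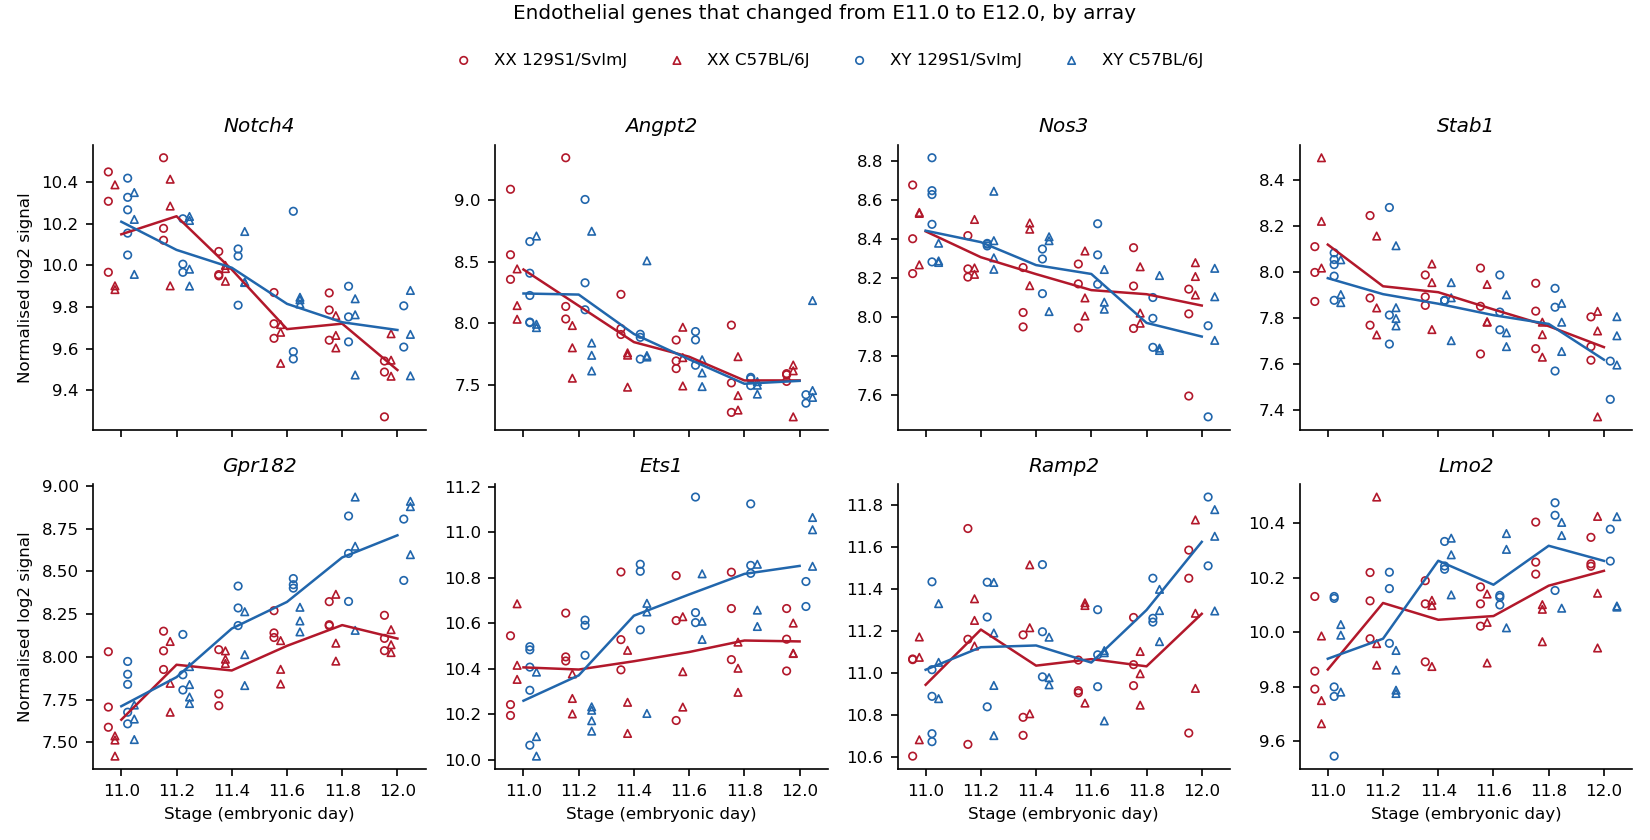
Log2 intensity of the members whose stage or sex change is described, on every one of the 74 arrays by stage, with XX and XY gonads and the strains marked and lines joining the mean of the strains in each sex (Notch4 on ILMN_1220697, Nos3 on ILMN_2788593, Gpr182 on ILMN_1213615 and Ets1 on ILMN_3157483). Notch4, Angpt2 and Stab1 step down over the day in both sexes, whereas Gpr182 and Ets1 climb further in XY than in XX gonads.

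The promoter windows of the members show the genomic context of these changes. RefSeq windows of GRCm38.p6, 250 bases before to 50 bases after a start site, were at hand for 21 of the 40 members, in 26 windows. Across them 17 short strings were searched on both strands, several of which overlap one another, and AGGAAG, a form of the ETS core, was chosen for display after its matches were seen. It was in 14 of the 26 member windows and in 35.4% of all windows in the same table, whereas GGAAGT, another ETS form, was in 6 of 26 and 23.8%, and CCGGAA in 2 of 26 and 14.9%. These matches describe letters and were not tested. The windows of Notch4 and Stab1, which fell in both sexes, follow on their own strands with AGGAAG or its complement CTTCCT in capitals, Notch4 from chr17:34564045-34564344 (plus strand, 4 matches) and Stab1 from chr14:31168592-31168891 (minus strand, 1 match).
Notch4: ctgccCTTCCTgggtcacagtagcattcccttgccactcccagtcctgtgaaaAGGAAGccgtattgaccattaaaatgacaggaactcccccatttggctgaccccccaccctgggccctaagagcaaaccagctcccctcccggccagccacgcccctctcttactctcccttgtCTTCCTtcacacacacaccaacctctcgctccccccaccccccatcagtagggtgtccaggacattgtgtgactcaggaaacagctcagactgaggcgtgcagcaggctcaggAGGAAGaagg
Stab1: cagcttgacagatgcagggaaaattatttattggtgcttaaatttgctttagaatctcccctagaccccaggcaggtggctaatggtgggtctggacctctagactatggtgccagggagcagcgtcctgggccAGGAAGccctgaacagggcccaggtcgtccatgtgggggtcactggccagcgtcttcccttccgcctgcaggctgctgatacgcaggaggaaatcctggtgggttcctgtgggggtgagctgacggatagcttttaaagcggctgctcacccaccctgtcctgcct

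The second question was whether XX and XY gonads differed. Gpr182, an atypical chemokine receptor of sinusoidal and lymphatic endothelium, and the ETS factor Ets1 were higher in XY gonads at E12.0, and no member was lower. On Gpr182 probe ILMN_1213615 the 6 XX arrays of E12.0 ran from 8.03 (median 8.09) to 8.24, and the XY arrays read 8.45 and 8.81 in 129S1 and 8.88, 8.60 and 8.91 in B6. Every XY array exceeded every XX array, where 5.32% of all kept probes had the sexes apart. At E11.0 the XX arrays ran from 7.42 (median 7.56) to 8.03 and the XY arrays from 7.52 (median 7.70) to 7.97, fully overlapping. The sex difference at E12.0 was 0.60 (SE 0.10, 1.52-fold, limma adjusted p = 6.54e-06), in a comparison where 3 of 44 member probes and 10.9% of all kept probes passed. The members' share was below that of all probes, and their median sex difference was -0.01.

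The group means trace when the sexes parted. In XX gonads the Gpr182 means of this probe over the 6 stages were 7.63, 7.95, 7.92, 8.06, 8.19 and 8.11, and in XY gonads 7.73, 7.87, 8.17, 8.32, 8.58 and 8.73. From E11.0 to E12.0 the level rose by 0.47 in XX (SE 0.10, 1.39-fold, limma adjusted p = 0.000209) and by 1.00 in XY (SE 0.10, 2.00-fold, limma adjusted p = 1.48e-12). The XY rise was larger by 0.53 (SE 0.14, limma adjusted p = 0.00794). The first stage at which the sex difference passed was E11.8, at 0.40 (limma adjusted p = 0.00264), where 9.49% of all kept probes passed.

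The second Gpr182 probe (ILMN_2765378) gave the same order at lower intensity. Its XX arrays of E12.0 ran from 7.68 (median 7.80) to 7.96, and its XY arrays read 7.93 and 8.12 in 129S1 and 8.12, 8.44 and 8.28 in B6. The lowest XY array overlapped the highest XX array. The difference at E12.0 was 0.35 (SE 0.09, 1.28-fold, limma adjusted p = 0.00523) and at E11.8 it was 0.31 (limma adjusted p = 0.0144). The probe rose by 0.74 in XY (SE 0.09, 1.67-fold, limma adjusted p = 1.41e-09) and changed by 0.23 in XX (SE 0.09, limma adjusted p = 0.0739), a difference of 0.51 (SE 0.12, limma adjusted p = 0.00458). No E11.0 array of this probe exceeded 7.69, near the 7.65 of the dimmest probe kept, so the filter could have favoured its rise with stage. The Gpr182 probes were also the only member probes to pass limma's moderated F test of the sex-by-stage term (adjusted p = 0.004 and 0.00484), which 5.98% of all kept probes passed.

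Ets1, expressed in endothelium, mesenchyme and lymphoid cells, was read by probe ILMN_3157483. In XX gonads it ran from 10.19 (median 10.38) to 10.69 at E11.0 and from 10.39 (median 10.50) to 10.67 at E12.0. In XY gonads it ran from 10.02 (median 10.35) to 10.50 at E11.0, and at E12.0 read 10.67 and 10.78 in 129S1 and 11.01, 10.85 and 11.07 in B6. All 5 XY arrays of E12.0 exceeded all XY arrays of E11.0 and all XX arrays of E12.0, a separation of the sexes shown by 5.32% of kept probes. Ets1 rose by 0.59 in XY (SE 0.10, 1.51-fold, limma adjusted p = 1.07e-05) and its change in XX was 0.11 (limma adjusted p = 0.54). The XY rise exceeded that in XX by 0.48 (SE 0.14, limma adjusted p = 0.0321), a comparison that 5.91% of kept probes passed, and the sex difference at E12.0 was 0.33 (SE 0.11, 1.26-fold, limma adjusted p = 0.0328). The other kept Ets1 probe was the dimmest member probe kept, at 7.06 to 7.81 over all arrays. It changed by 0.19 in XY (limma adjusted p = 0.0659) and differed between the sexes by 0.07 at E12.0 (limma adjusted p = 0.706). The probes of this gene thus had the same direction, but only the brighter passed.

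The Ets1 sex difference was lost without any 1 of 8 arrays, with an adjusted p of up to 0.121, and its stage-by-sex difference without any 1 of 9, with an adjusted p of up to 0.0893. Both were lost with no filter and in 129S1 alone, and the stage-by-sex difference also with the replicate block. In B6 alone the sex difference at E12.0 was 0.46 for Ets1 and 0.71 for Gpr182 on ILMN_1213615 (limma adjusted p = 0.0446 and 0.000181), and in 129S1 alone, with 2 XY arrays, 0.20 and 0.50 (limma adjusted p = 0.639 and 0.0289). The difference between the strains did not pass for either gene (limma adjusted p = 0.886 and 0.89). Leaving out 129S1 XY E12.0 replicate 2 left 1 of 3 calls in the stage-by-sex comparison and 1 of 3 in the sex difference at E12.0. At E11.0, E11.2, E11.4 and E11.6, limma called no member by sex, where 0.0655%, 0.0491%, 0.106% and 1.75% of kept probes passed, and 0, 0, 3 and 5 members had an unadjusted p under 0.05.

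Genes outside the members but on the lists of related pathways differed too. Etv2, the ETS factor that specifies the first endothelial cells of the mouse embryo, rose in XX by 1.49 (limma adjusted p = 2.7e-06) and in XY by 2.59 (6.01-fold, limma adjusted p = 2.45e-13), and was higher in XY by 1.00 at E12.0 (limma adjusted p = 0.00291). It spanned 7.03 to 10.47 over the 74 arrays. It was the only 1 of 3 kept genes on a 4-gene list of other sprouting and early endothelial genes to pass by stage or by sex at E12.0; Esm1 (endocan, a tip-cell gene) differed by 0.50 between the sexes (limma adjusted p = 0.0634) and Pdgfb did not pass either. Id1, Id3 and Smad6, targets of BMP and ALK1 signalling, were lower in XY gonads at E12.0 by 0.59, 0.57 and 0.53 (limma adjusted p = 0.0157, 0.0355 and 0.00162), out of 4 kept genes on a 5-gene list. For Smad6 only 1 of its probes passed by sex. In XY gonads Id3 fell by 0.74 over the day and Smad6 by 0.59 and 0.47 on its probes, while in XX no probe of this list passed in limma, adjusted or at an unadjusted p under 0.05. The difference between these stage changes did not pass for any of its 6 probes, of which 1 had an unadjusted p under 0.05. On the list of other venous and lymphatic genes, Nr2f2 (COUP-TFII, a factor of veins and of gonadal stroma) fell by 0.34 and 0.52 on its probes in XX and Pdpn (podoplanin) rose by 0.42, from 3 kept genes of 6. Nearly all of these genes are also expressed by cells other than endothelium.

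Markers of other cell types moved over the same stages. Of 11 germ cell probes (8 of 11 listed genes kept), 7 rose in XX and 2 in XY, and their mean level ran from 8.13 to 8.88 in XX arrays of E11.0 and from 8.73 to 9.77 at E12.0, and from 8.16 to 8.92 and from 8.30 to 9.44 in XY. PECAM1 also marks germ cells, and its probes did not pass with stage. Of 17 macrophage probes (13 of 17 genes kept), 2 fell in XX and 4 in XY, with a mean level of 7.79 to 8.68 at E11.0 and 7.77 to 8.13 at E12.0 in XX, and of 7.89 to 8.23 and 7.52 to 8.20 in XY. Stab1, which fell in both sexes, is shared with these cells. Mural cells wrap vessels, and of their 12 kept probes Rgs5, Notch3 and Des fell in both sexes, Rgs5 by 1.09 in XX and 0.98 in XY (limma adjusted p = 4.62e-08 and 3.91e-07). No mural probe passed as higher, but the change was positive for 9 of the 12 in XY (median 0.15) and for 4 in XX (median -0.10). The mural mean level ran from 8.11 to 8.83 at E11.0 and from 7.91 to 8.36 at E12.0 in XX, and from 8.14 to 8.67 and from 8.15 to 8.46 in XY. In none of the germ cell, macrophage and mural lists did a probe pass by sex at E12.0 in limma, where 4, 1 and 2 probes had an unadjusted p under 0.05. Of 10 red blood cell probes, Hbb-b2 rose and Hbb-bh1 fell in both sexes, and of 7 megakaryocyte and platelet probes 0 passed with stage. Neither list had a probe that passed by sex at E12.0. Of 4 mesonephros probes, Cdh16 fell in XX and Lhx1 rose in XY. Lhx1 was also higher in XY at E12.0, and its stage change differed between the sexes. The part of all these cells in the changes of the members was not tested.

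The third question was whether a member moved with the amount of vessel RNA or apart from it. The vessel reference was the mean log2 level, on each array, of 7 pan-endothelial genes with a kept probe: Cdh5, Egfl7, Esam, Icam2, Mmrn2, Tek and Tie1. It was 9.34 ± 0.13 (SD, n = 14) at E11.0 and 9.22 ± 0.09 (SD, n = 11) at E12.0. In XX gonads it ran from 9.18 (median 9.39) to 9.60 at E11.0 and from 9.09 (median 9.24) to 9.34 at E12.0, and in XY from 9.22 (median 9.29) to 9.60 and from 9.07 (median 9.20) to 9.36. The ranges overlapped in both sexes, with E12.0 at the lower end. No p is given for the reference, which is a score over members.

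**Figure D3:**
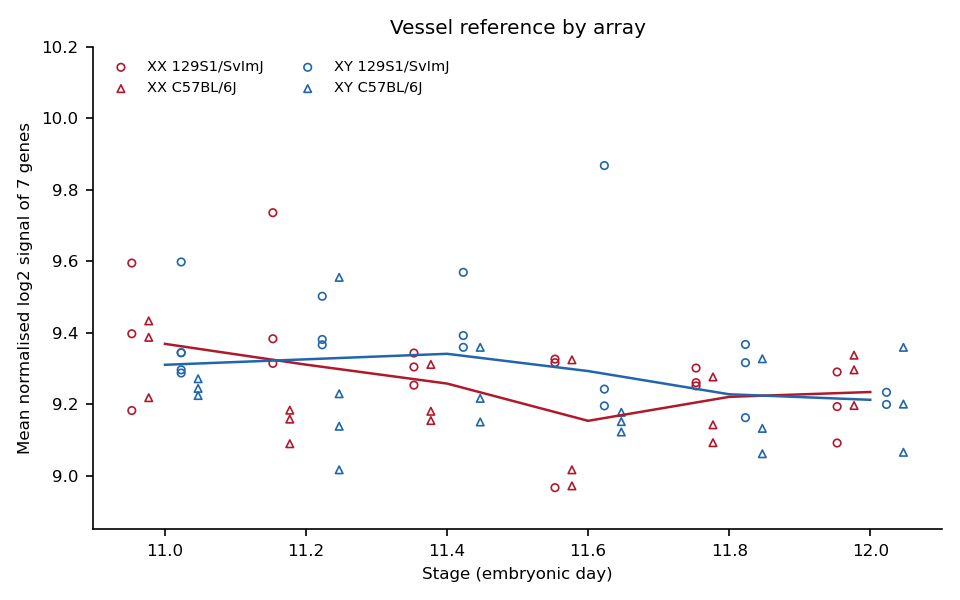
Vessel reference (mean log2 intensity of 7 pan-endothelial genes) on each of the 74 arrays by stage, with XX and XY gonads and the strains marked and lines joining the mean of the strains in each sex. The arrays of E11.0 average 9.34 and those of E12.0 average 9.22, and the highest array, 129S1 XY E11.6 replicate 2, reads 9.87.

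After the reference of the same array was subtracted from every probe, 8 of the 35 member probes outside the reference passed with stage in XX (5 higher and 3 lower) and 9 of 35 in XY (5 higher and 4 lower), beside 7.84% of all kept probes in XX (6.57% higher and 1.26% lower) and 8.97% in XY (6.58% higher and 2.38% lower). Relative to the reference, Notch4 still fell by 0.52 in XX and 0.42 in XY (limma adjusted p = 0.000336 and 0.00383), and Angpt2 by 0.77 and 0.61 (limma adjusted p = 6.23e-05 and 0.00149). Nos3 (ILMN_2788593) and Plvap fell by 0.45 and 0.37 in XY (limma adjusted p = 0.000912 and 0.0153), and Stab1 by 0.31 in XX (limma adjusted p = 0.0285). The Plvap and Stab1 calls were lost when the reference was Cdh5, Tie1 and Tek alone, and without any 1 of 3 arrays (adjusted p of up to 0.189) and 5 arrays (up to 0.138). The XY calls of Nos3 and Notch4 were lost without 129S1 XY E12.0 replicate 1 (adjusted p = 0.0862 and 0.0685 in limma). In B6 alone, all of these relative falls of Notch4, Angpt2, Nos3 and Plvap were lost (limma adjusted p of up to 0.904). In 129S1 alone, those of Notch4 and Plvap in XY and of Stab1 in XX were lost.

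On the rising side, Lmo2 gained 0.50 in XX and 0.46 in XY relative to the reference (limma adjusted p = 0.00183 and 0.00412), Ramp2 gained 0.47 and 0.71 (limma adjusted p = 0.0232 and 0.000199), and Tal1 gained 0.40 in XX (limma adjusted p = 0.0438). The reference averaged lower at E12.0, and the median change of all kept probes on this scale was 0.12 in XX and 0.09 in XY. Without the subtraction, the XX changes of Tal1 and Ramp2 had not passed. The Gpr182 probes gained 0.61 and 0.37 in XX and 1.10 and 0.84 in XY, all 4 values passing. Of these, the Tal1 call and the smaller XX call of Gpr182 (0.37, ILMN_2765378) were each lost with no filter, in each strain alone, with the reference as a covariate and without any 1 of 8 arrays (adjusted p of up to 0.173 and 0.159). The XX call of Ramp2 was lost in each strain alone, with a linear trend over the stages and without any 1 of 5 arrays (adjusted p of up to 0.124). Its XY call and both Lmo2 calls were lost in B6 alone, and the larger XX call of Gpr182 (0.61) in 129S1 alone. Ets1 gained 0.69 in XY (limma adjusted p = 6.55e-06). Of the sex differences at E12.0, 1 passed relative to the reference, that of Gpr182 at 0.63 (SE 0.13, limma adjusted p = 0.000702), where 5.54% of kept probes passed. The comparison of stage changes between the sexes gave no member call on this scale, beside 2.65% of all kept probes, and 3 members at an unadjusted p under 0.05. The number of XX calls relative to the reference was the least steady of these counts and fell to 5 without any of 129S1 XX E11.0 replicates 1 and 2 or B6 XX E12.0 replicates 1 and 2, and to 4 without 129S1 XX E12.0 replicate 2 or B6 XX E11.0 replicate 2.

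Arrays of a single group also differed in the reference, and the slope of each probe on it within groups asks which members followed. This test was added after the data had been seen. Of the 35 probes, 22 (18 genes) had a positive slope that passed in limma and 0 a negative one, beside 2.59% and 1.3% of all kept probes, and no member had a negative slope at an unadjusted p under 0.05. The median slope was 0.61 for the members and -0.01 for all kept probes. Vwf had a slope of 1.76 (SE 0.21, limma adjusted p = 6.07e-08), Angpt2 of 1.39 (SE 0.22, limma adjusted p = 2.44e-05), Gja5 of 1.08 (SE 0.19), Aplnr of 1.05 (SE 0.20) and Pecam1 of 1.01 (SE 0.17). A slope of 1 means that a probe changed by as much as the reference on the log2 scale.

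The probes that did not pass included both of Gpr182, at 0.06 (SE 0.16) and 0.13 (SE 0.14), both of Sox17 and of Ets1, Tal1 (-0.03, SE 0.16), Lmo2 (0.29, SE 0.15), Lyl1, Cd34 and Stab2, as well as 1 each of Notch4 and Nos3. Gpr182, Lmo2 and Ets1 (in XY) were thus among the members that rose with stage and did not pass the slope test, and Ramp2, which rose in XY, had a slope of 0.80 (SE 0.23, limma adjusted p = 0.0305), a call lost with no filter and without any 1 of 5 arrays. Without 129S1 XY E11.6 replicate 2, the array with the highest reference (9.87), 17 of the 35 slopes passed.

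**Figure D4:**
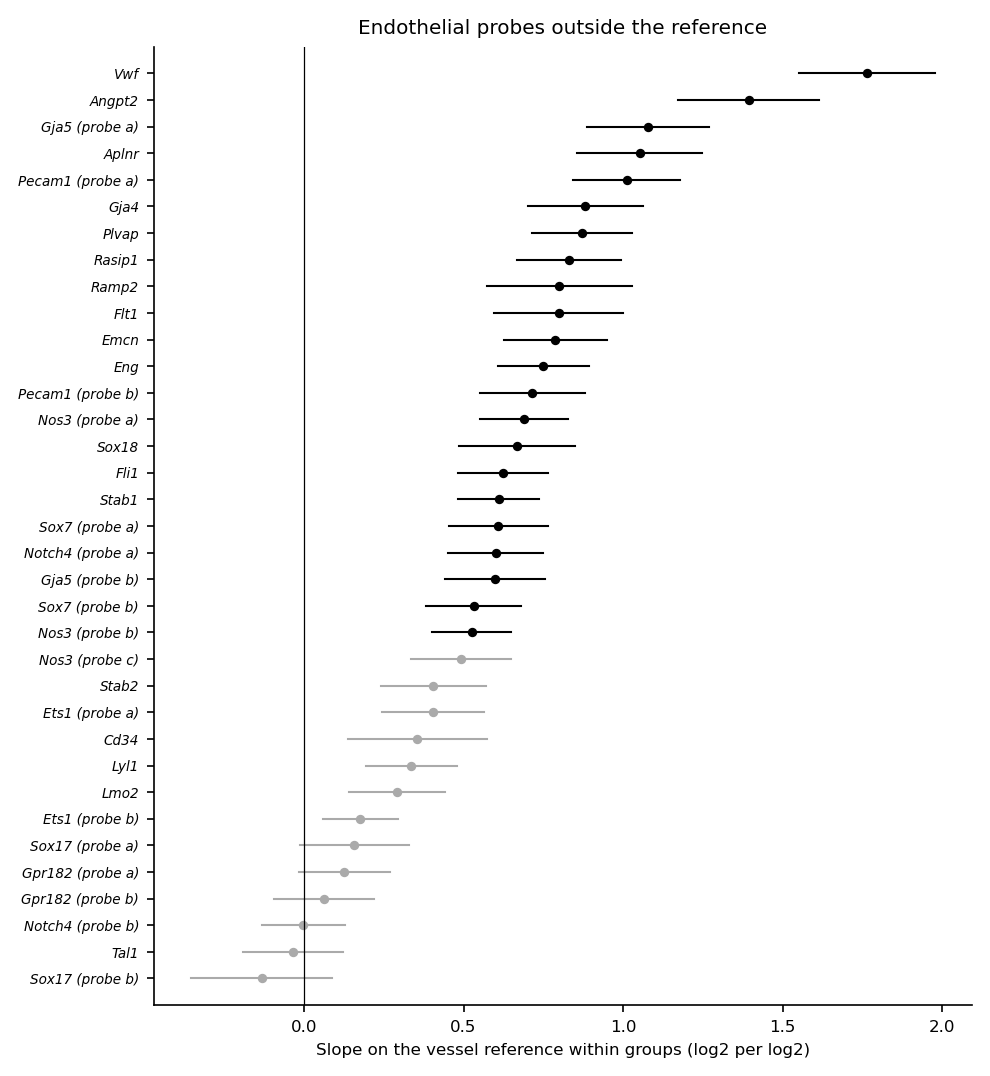
Slope of each of the 35 member probes outside the reference on the vessel reference among arrays of the same group (log2 per log2), with bars of 1 SE from limma and black points where the slope passed the test. All 22 that passed are positive, with Vwf at 1.76 at the top and Gpr182, Tal1 and Sox17 near 0.

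The fourth question was the difference between the strains. Over sexes and stages, 18 member probes were higher in 129S1 and 1 was higher in B6, against 16.4% and 14.8% of all kept probes, or 31.3% in all. The receptor genes Tek, Tie1 and Eng (endoglin), the junction and surface genes Pecam1, Plvap, Emcn, Cd34, Esam and Rasip1, the connexins Gja4 and Gja5 and the transcription factors Sox7, Sox18 and Ets1 were among those higher in 129S1. Ets1 probe ILMN_2770739, 1 of the 18, was kept only through 129S1. Its highest B6 array was 7.43, below the 7.65 of the dimmest probe kept, so the filter favoured its call and no strain difference is read from it. The brighter Ets1 probe differed by 0.14 (limma adjusted p = 0.00642). The differences were small, between 0.11 for Gpr182 (lost without any 1 of 5 arrays) and 0.30 for Sox7, and the median over the 44 probes was 0.08 beside 0.02 for all kept probes. Arrays of the strains overlapped for every member, as they did for all but 0.671% of kept probes. The vessel reference was 9.34 ± 0.17 (SD, n = 37) in 129S1 and 9.21 ± 0.12 (SD, n = 37) in B6. At E12.0 this order did not hold, with 9.20 ± 0.07 (SD, n = 5) in 129S1 and 9.24 ± 0.11 (SD, n = 6) in B6. At that stage alone, 2 member probes were higher in 129S1 and 3 lower at an unadjusted limma p under 0.05, beside 20.8% of all kept probes. Of these, 0 and 2 passed after adjustment.

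Sox7, a SOX factor of early endothelium, ran on its brighter probe from 8.76 (median 9.16) to 9.59 in 129S1 and from 8.38 (median 8.90) to 9.13 in B6, a difference of 0.30 (SE 0.04, 1.23-fold, limma adjusted p = 3.34e-08). Its other probe differed by 0.15 (limma adjusted p = 0.00244). Flt1, the VEGF receptor that binds VEGF with high affinity and limits its action, was the single member that was lower in 129S1. It ran from 8.31 (median 8.94) to 9.48 in 129S1 and from 8.82 (median 9.40) to 9.79 in B6. The difference was -0.42 (SE 0.06, 1.34-fold lower in 129S1, limma adjusted p = 8.63e-09), and it was -0.41 in XX gonads and -0.43 in XY gonads. Relative to the vessel reference it was -0.54 (SE 0.05, limma adjusted p = 7.76e-14). On that scale 2 of 35 member probes were higher in 129S1 and 10 lower, where 4.46% and 41.1% of all kept probes (45.5% in all) were and the reference itself averaged higher in 129S1, as given above. A probe can also read a strain difference in the sequence it binds, and the part of this in the Flt1 and Sox7 values was not tested.

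**Figure D5:**
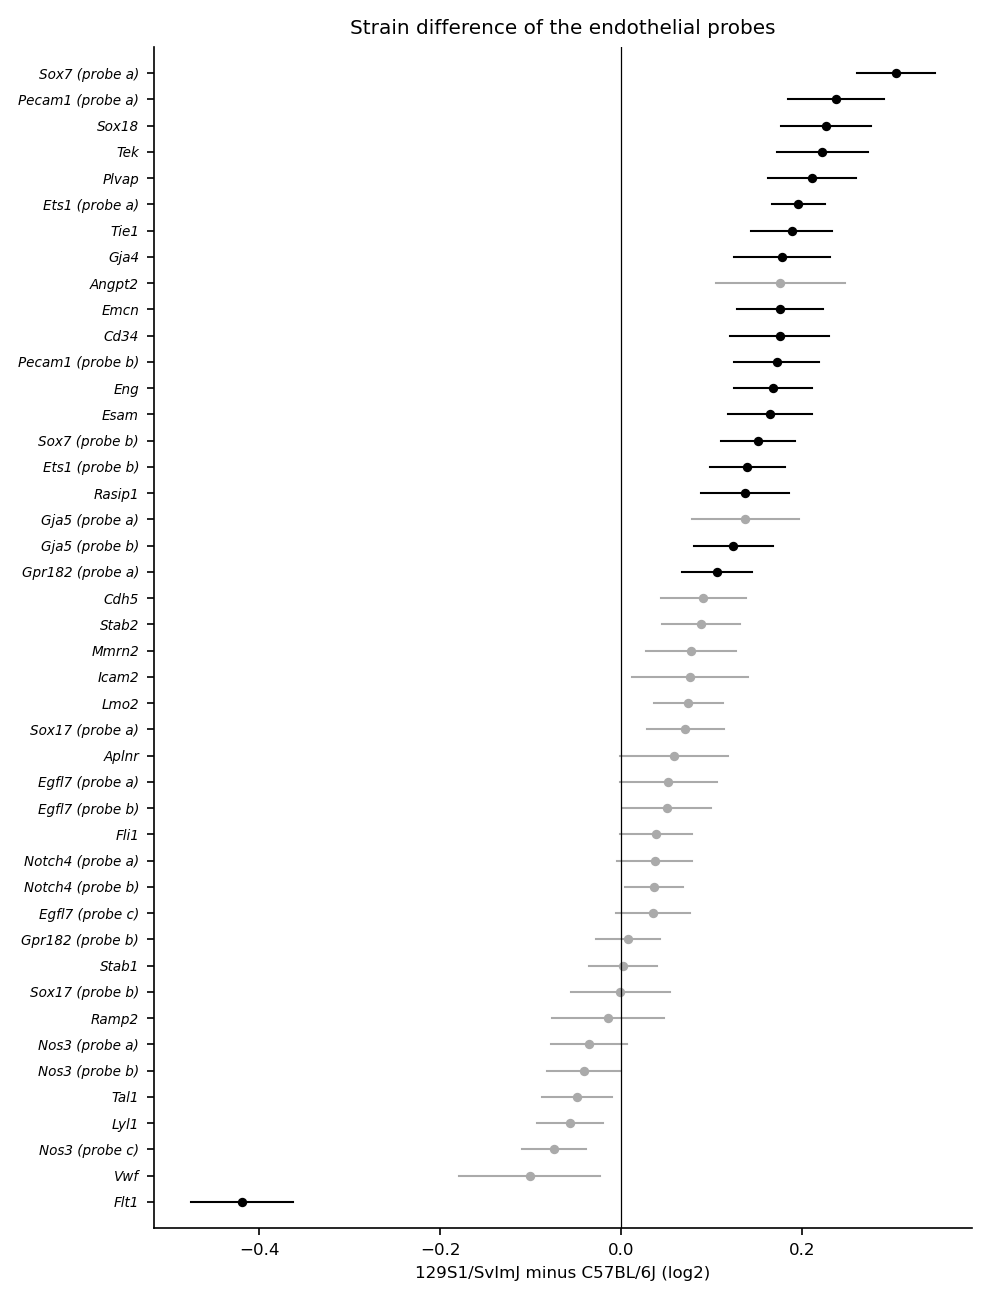
Difference between the strains (129S1 minus B6, log2, mean over sexes and stages) of the 44 endothelial probes with bars of 1 SE from limma and black points where the difference passed the test. The 18 probes that passed as higher in 129S1 lie between 0.11 and 0.30, and Flt1, at -0.42, is the only one that passed as lower.

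The windows of Flt1 and of Tie1, a receptor of the vessel reference whose level in 129S1 exceeded that in B6 by 0.19 (SE 0.04, adjusted p in limma = 0.000545), are shown because these receptors differed between the strains in opposite directions. They are given on the minus strand in the same way, Flt1 from chr5:147725962-147726261 (2 matches to the string in capitals) and Tie1 from chr4:118489800-118490099 (2 matches), and are reference sequence rather than that of either strain sampled.
Flt1: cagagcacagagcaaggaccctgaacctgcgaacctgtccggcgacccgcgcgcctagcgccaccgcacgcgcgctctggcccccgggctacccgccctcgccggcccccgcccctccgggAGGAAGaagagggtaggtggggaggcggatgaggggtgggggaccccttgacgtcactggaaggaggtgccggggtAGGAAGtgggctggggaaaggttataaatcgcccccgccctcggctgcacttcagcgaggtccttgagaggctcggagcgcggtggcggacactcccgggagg
Tie1: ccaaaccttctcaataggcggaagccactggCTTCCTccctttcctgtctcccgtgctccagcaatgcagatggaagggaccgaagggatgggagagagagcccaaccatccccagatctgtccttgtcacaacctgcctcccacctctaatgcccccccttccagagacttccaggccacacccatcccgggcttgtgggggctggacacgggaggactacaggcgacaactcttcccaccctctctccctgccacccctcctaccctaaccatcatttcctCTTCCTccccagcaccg

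Markers of other cells differed between the strains as well: 8 of 11 germ cell probes and 7 of 12 mural probes were higher in 129S1, and 5 of 7 megakaryocyte and platelet probes were lower. Of 17 macrophage probes 7 were lower in 129S1 and 2 higher, 3 of 10 red blood cell probes were higher, and Esm1 and Etv2 were lower, by 0.51 and 0.34 on the log2 scale (limma adjusted p = 9.91e-09 and 0.00352). The germ cell mean level ran from 8.40 to 9.53 in 129S1 and from 7.79 to 9.77 in B6, the mural level from 8.11 to 8.89 and from 7.90 to 8.92, and the megakaryocyte level from 7.35 to 8.76 and from 7.80 to 8.52. The macrophage level ran from 7.52 to 8.37 in 129S1 and from 7.77 to 8.68 in B6, and the red blood cell level from 11.09 to 12.34 and from 11.01 to 12.17. Their part in the strain differences of the members was not tested. The stage course of the members was not shown to depend on strain: 0 of 44 passed the stage-by-strain term in limma, with 4 at an unadjusted p under 0.05, beside 0.319% of all kept probes, and 0 passed the difference of the E11.0 to E12.0 changes, with 5 at an unadjusted p under 0.05, beside 0.262%. Within 129S1 alone 3 member probes passed with stage in XX and 12 in XY, and within B6 alone 3 and 4. At an unadjusted limma p under 0.05, these were 11 and 20 of 44 in 129S1, beside 14.9% and 24.4% of all kept probes. In B6 they were 13 and 8, beside 16.1% and 15.9%, so the XY share of all probes was also larger in 129S1.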

How the data were processed

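Whole-gonad RNA of each gonad pair was amplified with oligo(dT) priming and hybridised to Illumina MouseRef-8 v2.0 arrays. The deposited values used here are quantile-normalized log2 intensities, which the authors made with beadarray in R 2.12.0 from GenomeStudio output. Quantile normalization gives every array the same distribution, so a change shared by most genes cannot be seen. A further table of intensities was not used, since its 148 columns of values are named by chip position and not by sample, and detection p-values and chips were therefore not analysed here. The number of arrays per group limits the precision.

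Each probe was given the value of its second brightest array within its best group, and of the probes ordered by it as many were kept as the paper kept with its detection filter. A model of 24 group means over all 74 arrays was fitted with limma 3.58.1 in R 4.3.3, and p-values were adjusted by Benjamini-Hochberg over the kept probes at 0.05. Contrasts weight the strains equally, whatever their number of arrays, and folds are 2 to the power of the log2 difference. Relative fits subtract the vessel reference of the same array, for which 1 kept probe a gene was used and 7 of 10 listed genes had one. The members and lists were chosen with earlier results of these data known. All members were accounted for by role, and values by array were given for the main probe of those passing an E11.0 to E12.0, sex or sex-by-stage test. Others were given by means or ranges. Gene names come from GEO's platform annotation. Scripts were tested on simulated data. Alternatives were the filter, the scaling, array quality weights, a shared axis of deviation, a replicate block, the variance prior, 1 probe per gene, each strain alone, other stage contrasts, other forms of the reference, and each array left out in turn. Figures were drawn with matplotlib 3.10.9 in Python 3.11.15.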

Additional observations from a re-analysis of the deposited data

Results flagged for a closer look

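In the 2 groups with 4 or 5 arrays, 90 series of values (the member probes and the vessel reference) were examined for an array far from the rest, and 9 had one, while chance gives about 1 in 20. In 129S1 XY E11.0, replicate 2 stood above the others for Gja5 on probe ILMN_2908133 (7.678, nearest 7.34), Plvap (11.388, nearest 11.083), Vwf (8.312, nearest 7.842) and the vessel reference (9.598, nearest 9.344), and replicate 1 stood below them for Mmrn2 (9.182, nearest 9.316). In B6 XY E11.2, replicate 1 stood above the others for Gja5 on the same probe (8.312, nearest 7.48), Tie1 (8.322, nearest 7.917) and Vwf (9.402, nearest 8.116), and replicate 4 stood below them for Flt1 (9.297, nearest 9.636).

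The E11.0 to E12.0 change differed between the sexes by limma's test of the difference itself for Ets1 on probe ILMN_3157483 (XY minus XX 0.4793) and for Gpr182 on both probes (0.5253 on ILMN_1213615 and 0.5083 on ILMN_2765378). The Ets1 call was lost with no filter, with the replicate block, in 129S1 alone and without any 1 of 9 arrays (adjusted p of up to 0.0893). Both Gpr182 calls were lost in 129S1 alone, and that of ILMN_1213615 also in B6 alone and without 129S1 XY E12.0 replicate 2 (adjusted p = 0.0679).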

How the results depend on the processing

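No result changed direction under any alternative run. With the 8000 brightest probes, 1 member passed the sex-by-stage term and 5 the XX stage change relative to the reference, and with 1 probe per gene 1 passed the sex-by-stage term. The sex difference at E12.0 relative to the reference rose from 1 call to 2 with array quality weights (whose estimation stopped before full convergence), 3 with the shared axis of deviation as a covariate, 3 with the reference as a covariate and 4 with E11.8 and E12.0 averaged. In 129S1 alone the counts were 3 for the XX stage change, 0 for the stage change between sexes, 1 for the sex difference at E12.0, 3 for the XX change relative to the reference and 0 for the relative sex difference. In B6 alone they were 3 for the XX and 4 for the XY stage change, and 2 and 3 relative to the reference. The cause of these differences was not tested, and each strain alone has fewer arrays. At an unadjusted limma p under 0.05, the XY stage change took in 24.4% of all kept probes in 129S1 alone and 15.9% in B6 alone. Arrays of the same replicate number deviated somewhat alike: the mean correlation of deviations was 0.09 for the same number and -0.04 for different numbers. Of 806 pairs with the same number from different groups, 414 correlated above 0.1, and the lowest was at -0.665. In all, 35 of 74 arrays matched their own number best. The labels do not say what the number stands for, and the main fit leaves it out. With the replicate block, 11 XX and 12 XY stage calls, 2 between sexes, 3 by sex at E12.0, 20 by strain and 2 by relative sex difference were found, and Ets1 no longer passed between sexes.

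With each array left out in turn, the counts ran from 7 to 11 (XX stage change), 11 to 14 (XY), 1 to 3 (between sexes), 1 to 3 (sex at E12.0), 2 to 3 (sex by stage), 18 to 21 (strain), 0 to 0 (stage by strain), 4 to 8 and 7 to 10 (XX and XY relative to the reference), 1 to 2 (relative sex difference), 17 to 23 (slope) and 17 to 22 (F test over stages). The relative sex difference had 2 calls without 129S1 XY E11.6 replicate 2, B6 XX E12.0 replicate 1, B6 XY E11.2 replicate 1 or B6 XY E12.0 replicate 1. Genes dimmer than the filter were not analysed here.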
